A study of Saccharomyces cerevisiae with 18 samples.

Results

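The 34 genes described here encode enzymes of the tricarboxylic acid (TCA) and glyoxylate cycles of budding yeast, the pyruvate dehydrogenase complex that feeds them, carriers of organic acids and 3 activators of their transcription. They were chosen by name, with earlier results of these data known, from 14204 gene and transcript identifiers in the 3 tables. Each of the 34 was found in all 3. The study asked how loss of the small nucleolar RNAs (snoRNAs) U3 and snR4, which otherwise act on ribosomal RNA, changes mRNA levels. It has 18 RNA-seq libraries in 6 groups of 3. In the U3 experiment both groups are BY4741 cells in which SNR17B was deleted and SNR17A was driven by the repressible PGAL promoter. On the centromeric plasmid pRS413 one group carried a truncated U3 and the other carried wild type snR17A, and the labels give SD glucose medium at 30°C for all. The methods add that cultures of the truncated U3 clones were first grown in galactose and then moved to glucose for prolonged growth. This turned off the PGAL copy before harvest, so these cells had changed carbon source. A legend gives the same growth in glucose for the comparison with wild type U3, whose earlier medium the methods do not state. The study reports that the truncated U3 strain was inviable after this move, with ribosomal RNA maturation inhibited. In the snR4 experiment, cells with a deleted SNR4 gene were compared with BY4741 cells whose SNR4 gene was intact. The comparison was made in glucose medium at 30°C, and again after a short move into ice-cold PBS. For these ice samples a figure legend of the study instead describes a move into medium with ethanol and glycerol, a carbon source change to which many of the 34 genes are known to respond. The labels, the methods and the study's main text all give ice-cold PBS and were followed, and that legend alone differs. The mean levels themselves cannot show which treatment the libraries had. Each U3 group rests on a single plasmid construct, and every group is in the BY4741 background.

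The TCA cycle of mitochondria oxidises acetyl-CoA to carbon dioxide and passes the electrons to respiration. The glyoxylate cycle shares several of its reactions but bypasses the decarboxylating steps with isocitrate lyase and malate synthase, so that cells can build sugars and amino acids from acetate or ethanol. In glucose, budding yeast ferments and represses many of these genes, and the Snf1 kinase with the activators Cat8, Adr1 and Sip4 turns them on when glucose runs out. Parallel reactions in the mitochondrion, cytosol and peroxisome are run by separate isozymes, among them the citrate synthases, the malate dehydrogenases and the NADP-dependent isocitrate dehydrogenases.

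Each table gives 1 mean level per gene over its 6 libraries, mutant and control together, with no value per library. The snR4 levels below therefore carry no SD. For U3 a variance over the 6 libraries is given, and it is described after the levels. No level was tested, and the mutants are not compared with their controls. In the snR4 tables the level is the mean normalised count, that is reads per gene scaled between libraries, and in the U3 table it is the geometric mean of the estimated counts, to which 0.5 was added before the logarithm. Depth per library is unknown, and the mean levels of all genes sum to 14613981 in the glucose table and 13472351 in the ice table. The number of libraries and the mixing of 2 genotypes in each mean limit the precision of every value. The deletion of SNR4 and the exchange of U3 could not be checked from these means. All 34 genes passed the minimum mean of 10 in every table, with the lowest snR4 mean at 30.5 and the lowest U3 level at 12.0.

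Compartment separates the isozymes, and for 4 of the 34 genes the last 3 codons before the stop match the pattern of a peroxisomal targeting signal. They belong to the citrate synthase Cit2, the malate dehydrogenase Mdh3, the malate synthase Mls1 and the NADP isocitrate dehydrogenase Idp3. The end of CIT1, the mitochondrial citrate synthase whose coding sequence is 73.2% identical to that of CIT2, is shown for contrast and does not match. The runs are the last 30 coding bases from the R64 genome, 5′ to 3′ on the coding strand, with the final 3 codons before the stop in capitals.
CIT2 (III:120946-120975, minus strand): ttggtcaaaaacattgaaAGCAAACTAtag
MDH3 (IV:315357-315386, minus strand): agtttcatcctagactctTCCAAGCTAtga
MLS1 (XIV:407993-408022, plus strand): gcgacgcccactgatttgAGCAAATTGtga
IDP3 (XIV:616054-616083, plus strand): gaagacaagaaaggtatgTGCAAACTAtaa
CIT1 (XIV:629622-629651, minus strand): ttggtaaagaaaatcgaaAGTAAGAACtaa
Reads can be told apart among these isozymes only where their coding sequences differ. The longest stretch that CIT1 and CIT2 share is 21 bases, and the longest shared by any of the 9 isozyme pairs is the 23 bases of IDP1 and IDP2. Identity over the aligned coding bases ran from 56.8% for CIT2 and CIT3 to that of CIT1 and CIT2. No member overlaps another gene of the RefSeq annotation.

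Levels of different genes were compared per kb of coding length. Per kb, 10 of the 34 genes lay above the 90th percentile of 5811 mRNAs in glucose, 7 above that of 5809 on ice and 2 above that of 5727 protein-coding transcripts in the U3 experiment. At the other end, 11, 13 and 15 of the 34 lay below the middle of the same rankings. The genes thus spanned nearly the whole range, with pyruvate dehydrogenase and most TCA enzymes in the upper part. At or near the bottom were CAT8, SIP4, the TCA citrate synthase CIT3, the malate synthase and a succinate carrier. The order of the 34 genes per kb was alike in glucose and on ice, with Spearman's rho 0.97 across genes, and rho was 0.87 between glucose and the U3 experiment. Over all genes with a level in both, rho was 0.95 for 5792 genes and 0.85 for 5650. These are descriptions across genes, which are not replicates, and glucose and U3 values also differ in how reads were counted.

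**Figure D1:**
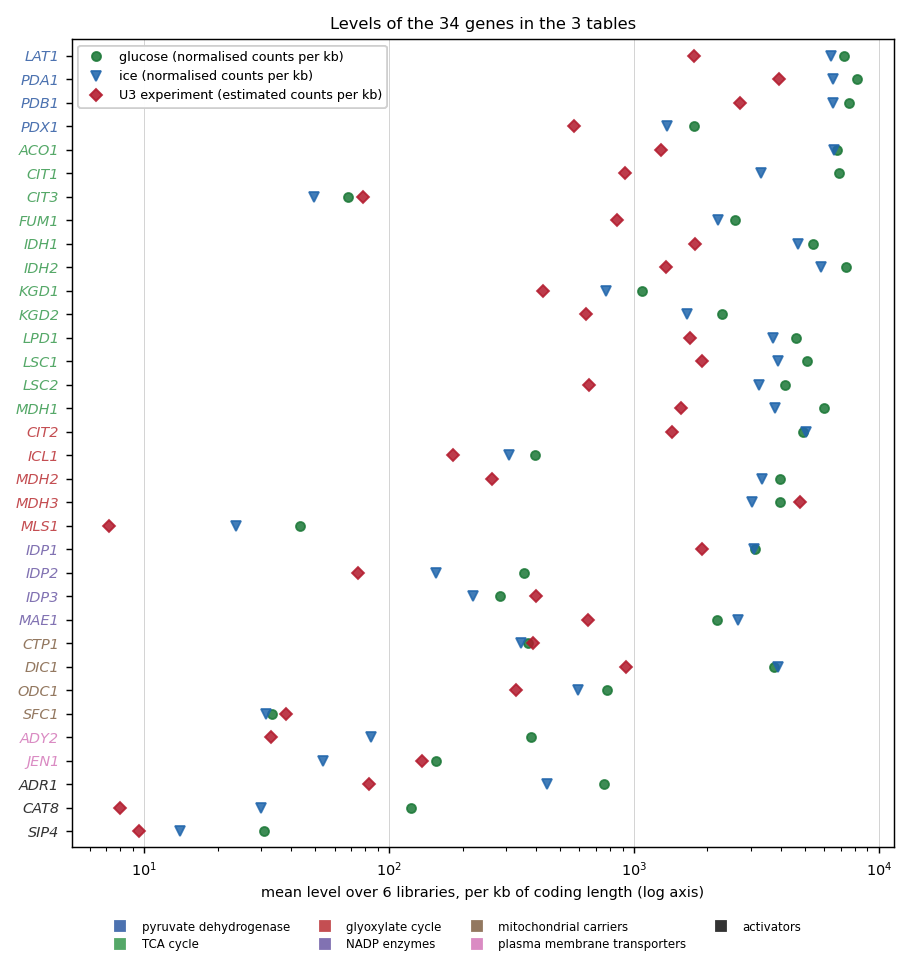
Mean level of each of the 34 genes per kb of coding length (log axis), as normalised counts in the glucose and ice tables and as estimated counts in the U3 table, with gene names coloured by role. Each point is 1 mean over 6 libraries, and the levels run from under 10 for MLS1, CAT8 and SIP4 in the U3 table to 8137 for PDA1 in glucose.

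In the pyruvate dehydrogenase complex, which turns pyruvate into acetyl-CoA, PDA1 was the highest and PDX1 the lowest of 4 subunits in each table. PDA1, the E1 alpha subunit (chromosome V:546817-548079), stood at 8137 normalised counts per kb in glucose and 6529 on ice, and at 3904 estimated counts per kb in the U3 libraries. PDB1, which encodes the E1 beta partner in the same heterotetramer, stood at 7599 per kb in glucose, so the ratio PDA1 to PDB1 was 1.07 there, 1.0 on ice and 1.44 in the U3 libraries. PDX1, the E3-binding subunit (chromosome VII:884509-885741), stood lower at 1764, 1370 and 569.5 per kb. LAT1, the E2 core, lay between these with 7188 per kb in glucose.

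The first step of the TCA cycle is the citrate synthase reaction, and its 3 genes differed widely in level. CIT1, the main mitochondrial enzyme (chromosome XIV:629622-631061), had a mean normalised count of 9936 in glucose and 4776 on ice, and an estimated count of 1320 in the U3 experiment. CIT2, the peroxisomal enzyme of the glyoxylate cycle (chromosome III:120946-122328), had 6812 in glucose, 6990 on ice and 1972 in the U3 libraries. CIT3, a minor mitochondrial form (chromosome XVI:556377-557837), had 99.7, 72.4 and 115. Per kb, CIT1 was 1.40 times CIT2 in glucose but 0.656 times CIT2 on ice and 0.643 times in the U3 libraries. The order of these means was thus not the same in the 3 tables. Over the U3 libraries, however, the SD (log2) was 1.03 for CIT1 and 1.32 for CIT2, so their order in single libraries is unknown. The U3 levels also came from a different counting method. CIT1 exceeded CIT3 per kb by 101 times in glucose, 66.9 times on ice and 11.7 times in the U3 libraries.

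Within the rest of the cycle, 10 further genes ranged from KGD1, a subunit of 2-oxoglutarate dehydrogenase, at 1085 normalised counts per kb in glucose to IDH2, a subunit of the NAD-dependent isocitrate dehydrogenase, at 7352. IDH2 (chromosome XV:580250-581359) was the highest of all the TCA genes per kb in glucose, ACO1 on ice at 6545 and LSC1 in the U3 libraries at 1898. ACO1 (chromosome XII:735212-737548) is aconitase, which makes isocitrate from citrate, and had a mean normalised count of 15860 in glucose and 15297 on ice, and an estimated count of 3026 in the U3 experiment. LSC1 and LSC2 are the alpha and beta subunits of succinyl-CoA ligase, and per kb LSC1 was 1.22 times LSC2 in glucose, 1.20 times on ice and 2.88 times in the U3 libraries. IDH2 was 1.37 times IDH1 in glucose, 1.24 times on ice and 0.766 times in the U3 libraries, and KGD2 was 2.11, 2.14 and 1.51 times KGD1. LPD1, the dihydrolipoamide dehydrogenase shared by several complexes, had 6912 normalised counts in glucose and FUM1, the fumarase, 3783.

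Malate dehydrogenase, the last enzyme of the cycle, is encoded by MDH1 for mitochondria, MDH2 for the cytosol and MDH3 for peroxisomes. MDH1 (chromosome XI:279123-280127) had a mean normalised count of 6027 in glucose and 3805 on ice, and an estimated count of 1572 in the U3 experiment. MDH2 (chromosome XV:81787-82920) had 4489 in glucose, 3804 on ice and 299 in the U3 libraries, and MDH3 (chromosome IV:315357-316388) had 4082, 3130 and 4938. MDH2 and MDH3 were nearly level per kb in the snR4 tables, with MDH3 0.999 times MDH2 in glucose and 0.904 times on ice. In the U3 table MDH3 was 18.1 times MDH2 and 4785 per kb, at the 91.8th percentile of protein-coding transcripts, while MDH2 was at the 34.6th. The U3 table came from a different counting method, so experiment and method cannot be told apart in this contrast.

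The 2 enzymes found only in the glyoxylate cycle were low in all tables. ICL1, isocitrate lyase (chromosome V:285241-286914), had a mean normalised count of 664 in glucose and 518 on ice, and an estimated count of 305 in the U3 experiment. MLS1, malate synthase (chromosome XIV:406358-408022), had 71.9, 39.6 and 12.0, and was the lowest glyoxylate gene in each table. Per kb, ICL1 was 9.18 times MLS1 in glucose, 13.0 times on ice and 25.2 times in the U3 libraries. Both lay below CIT2, MDH2 and MDH3 per kb in every table, and ICL1 was at the 29.6th and MLS1 at the 7.28th percentile of mRNAs in glucose.

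The NADP-dependent isocitrate dehydrogenases make 2-oxoglutarate and NADPH in mitochondria (IDP1), cytosol (IDP2) and peroxisomes (IDP3). IDP1 (chromosome IV:334835-336121) had a mean normalised count of 4006 in glucose and 3989 on ice, and an estimated count of 2439 in the U3 experiment, which made it the highest of this group per kb in each. IDP2 (chromosome XII:504591-505829) had 442, 192 and 92.6, and IDP3 (chromosome XIV:614821-616083) had 359, 278 and 502. Per kb, IDP1 was 8.73 times IDP2 in glucose, 20.0 times on ice and 25.3 times in the U3 libraries. IDP3 was below IDP2 in glucose and above it on ice and in the U3 libraries. MAE1, the mitochondrial malic enzyme that turns malate into pyruvate, had 4406 in glucose and 5364 on ice.

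**Figure D2:**
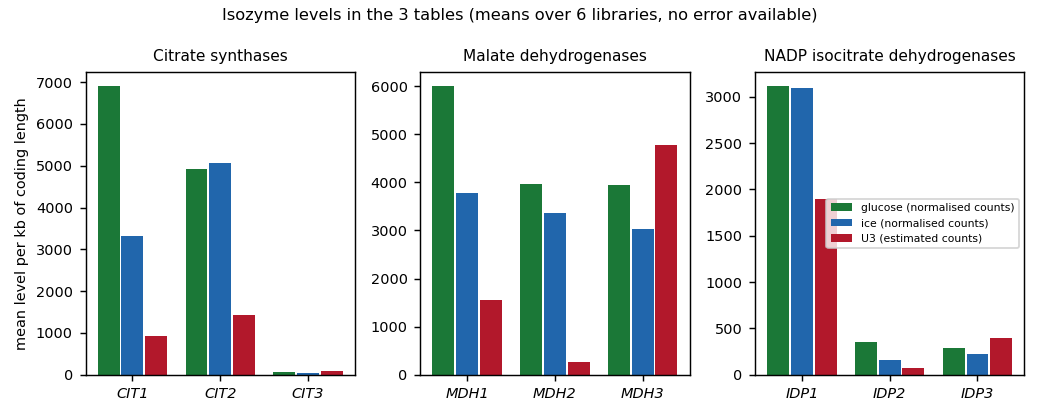
Bars give the mean level per kb of coding length of the citrate synthases, malate dehydrogenases and NADP isocitrate dehydrogenases, each over 6 libraries. Glucose and ice are in normalised counts, with no error available, and U3 is in estimated counts. The spread over the U3 libraries is not drawn, and its SD (log2) was 1.03 for CIT1 and 1.32 for CIT2. CIT1 stands above CIT2 in glucose alone, and MDH3 stands above MDH1 and MDH2 in the U3 libraries alone.

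Of the 4 mitochondrial carriers, DIC1 was the highest and SFC1 the lowest in every table. DIC1, the dicarboxylate carrier (chromosome XII:826977-827873), had a mean normalised count of 3353 in glucose and 3482 on ice, and an estimated count of 832 in the U3 experiment. SFC1, which exchanges succinate for fumarate (chromosome X:609773-610741), had 32.4, 30.5 and 36.8. ODC1, the oxodicarboxylate carrier, had 722 in glucose and CTP1, the citrate carrier, 334. At the plasma membrane, JEN1 (chromosome XI:22234-24084) imports lactate and pyruvate and had 289 in glucose, 99.5 on ice and 254 in the U3 libraries. ADY2 (chromosome III:132273-133124) takes up acetate and had 323, 72.1 and 28.3, so that per kb it was above JEN1 in both snR4 tables and below it in the U3 table.

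Of the 3 zinc-finger activators, CAT8 and SIP4 were among the lowest of the 34 genes per kb. CAT8 has a coding length of 4302 bases, and without division by length it was at the 29.5th percentile of mRNAs in glucose. CAT8 (chromosome XIII:827028-831329), which acts on gluconeogenic and glyoxylate genes, had a mean normalised count of 531 in glucose and 129 on ice, and an estimated count of 34.2 in the U3 experiment. ADR1 (chromosome IV:895035-899006), which acts on genes for ethanol and fatty acid use, had 3006, 1759 and 329 and was the highest of the 3 per kb in all tables. SIP4 (chromosome X:265926-268415), a Cat8-related activator, had 76.7, 35.0 and 23.8. Per kb, ADR1 was 6.13 times CAT8 in glucose, 14.8 times on ice and 10.4 times in the U3 libraries, and CAT8 was 4.01, 2.13 and 0.833 times SIP4.

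Mean levels on ice were set against those in glucose as a log2 ratio, centred on the median of the 6799 genes with a mean of at least 10 in both tables. Before centring, that median was -0.08. The tables were normalised separately and each mean pools 3 snr4 deletion and 3 BY4741 libraries. The transfer, any difference between the tables and a shift in 1 genotype alone therefore cannot be told apart, and nothing here was tested. That transfer was into ice-cold PBS per the labels, the methods and the main text, and 1 legend alone gives ethanol and glycerol. A gene was counted as lower or higher when it was past 1.5-fold.

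Of the 34 genes, 9 were lower on ice by this count, 0 were higher and 25 lay within 1.5-fold. The 9 are 26.5% of the list, against 12.0% of all genes and 11.7% of 5669 mRNAs that were lower. The list was chosen with earlier results of these data known, and this difference was not tested. The higher side held 8.87% of all genes and 7.71% of mRNAs. With centring, 29 of the 34 ratios lay below 0 and 5 above, and the median was -0.28, beside 0.00 for mRNAs. Ratios nearest 0 turn with the scaling, since ACO1 and IDP1 went below 0 without centring and SFC1 and CTP1 above it after scaling to the sums. With means of at least 100 in both tables, 5 of the 28 genes kept were lower, beside 10.4% of 5158 mRNAs.

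The lowest ratios were those of ADY2, CAT8 and JEN1. ADY2 had 323 normalised counts in glucose against 72.1 on ice, a centred log2 ratio of -2.09 or 4.25-fold lower on ice, and 1.34% of mRNAs had a lower ratio. CAT8 had a ratio of -1.97, 3.91-fold lower, JEN1 -1.46, 2.75-fold lower, and SIP4 -1.05, 2.08-fold lower. ADR1 had -0.69, 1.62-fold lower. All 3 activators and both plasma membrane transporters were thus past the fold, with group medians of -1.05 and -1.77.

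Among the enzymes, 4 were past the fold. IDP2 had a ratio of -1.12, 2.17-fold lower on ice, CIT1 -0.98, 1.97-fold lower, and MLS1 -0.78, 1.72-fold lower. MDH1 lay on the line at -0.59, or 1.5-fold, the last gene inside it, and KGD1 at -0.41 was the first outside. Within each isozyme set, 1 gene at most was past the fold: CIT1 but neither CIT2 at 0.12 nor CIT3 at -0.38, MDH1 but neither MDH2 at -0.16 nor MDH3 at -0.30, and IDP2 but neither IDP1 at 0.07 nor IDP3 at -0.29. Of the glyoxylate-specific pair, MLS1 was past it and ICL1, at -0.28, was not.

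No subunit of pyruvate dehydrogenase was past the fold, and their ratios lay between -0.29 for PDX1 and -0.10 for LAT1. The other TCA enzymes lay between KGD1 and ACO1 at 0.03. The mitochondrial carriers lay between -0.30 for ODC1 and 0.13 for DIC1. MAE1 had the highest ratio of all 34, at 0.36.

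**Figure D3:**
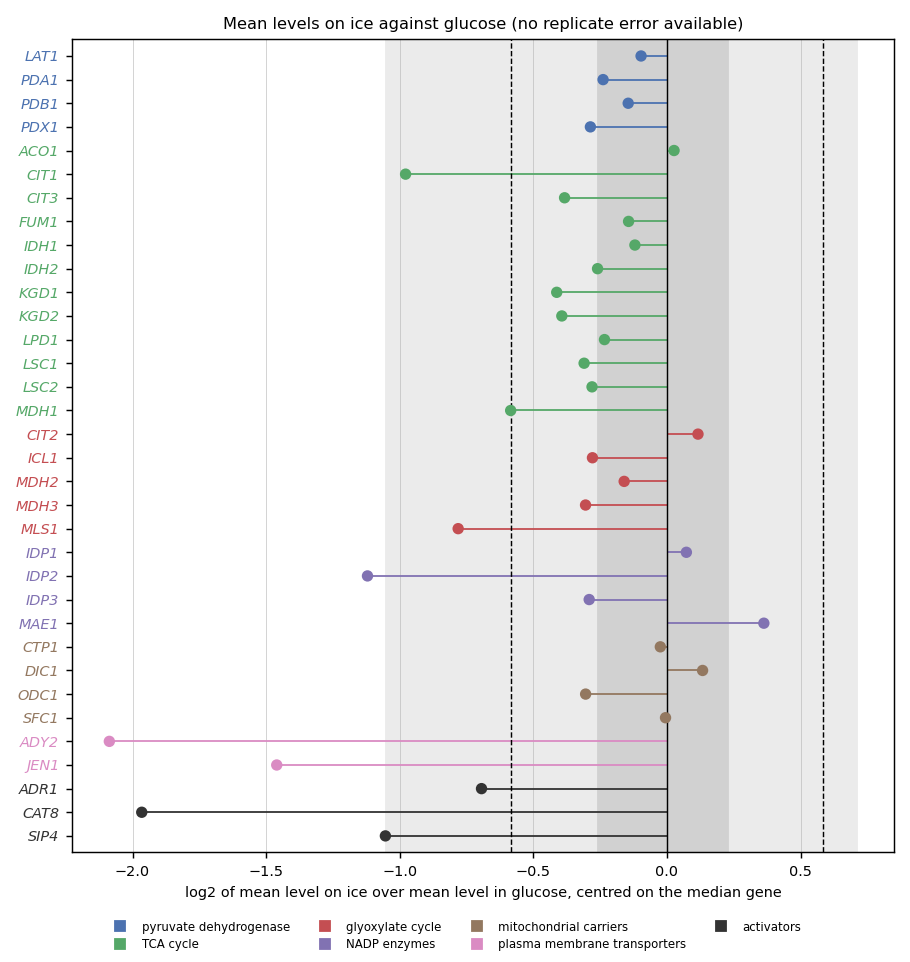
Centred log2 ratio of the mean level on ice to that in glucose for each of the 34 genes, coloured by role, with dashed lines at 1.5-fold and grey bands for the middle 50% and 90% of mRNAs. The points of ADY2, CAT8, JEN1 and IDP2 lie below the wider band, SIP4 lies at its lower edge of -1.05, and no point reaches the upper dashed line.

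The U3 table gives, for each transcript, the variance of the natural log of the estimated counts over the 6 libraries, expressed below as an SD on the log2 scale. This SD holds the difference between the truncated and wild type U3 groups and the spread within each group together and is read as neither. A transcript was counted as widely spread at an SD of at least 1. By that count 5 of the 34 genes were widely spread, or 14.7%, against 14.8% of 8066 transcripts with a mean of at least 10 and 8.0% of 5813 protein-coding ones. The share of the 34 is near that of all transcripts and above that of protein-coding ones, and neither difference was tested. Their median SD was 0.64, beside 0.50 over all transcripts and 0.43 over protein-coding ones.

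They encode aconitase, a pair of citrate synthases, a subunit of isocitrate dehydrogenase and the dicarboxylate carrier. ACO1 had an SD of 1.74, CIT2 1.32, DIC1 1.27, IDH2 1.09 and CIT1 1.03, and 98.6% of protein-coding transcripts had a smaller SD than ACO1. The technical SD, which the quantification gives from resampled reads, was at most 0.055 for these 5. MDH3 and IDH1, both at 0.92, lay just outside. By contrast PDX1 at 0.10, PDB1 at 0.17 and ODC1 at 0.18 varied least, and 1.31% of protein-coding transcripts had a smaller SD than PDX1.

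CIT1 was both past the fold on ice and widely spread, 1 of the 9 and 1 of the 5. Of all transcripts 14.8% were widely spread, and of protein-coding ones 8.0%. An overlap of 1 gene is too small to set against either share, and nothing is read from it. ADY2 had an SD of 0.41, CAT8 0.61, JEN1 0.29, IDP2 0.37, ADR1 0.43 and MDH1 0.67. For the lowest genes the technical part was large: MLS1 had an SD of 0.88 with a technical SD of 0.50, SFC1 0.84 with 0.44 and SIP4 0.70 with 0.47. Of the isozymes not yet named, MDH2 had 0.44, CIT3 0.70, IDP1 0.86 and IDP3 0.42, and ICL1 had 0.34.

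**Figure D4:**
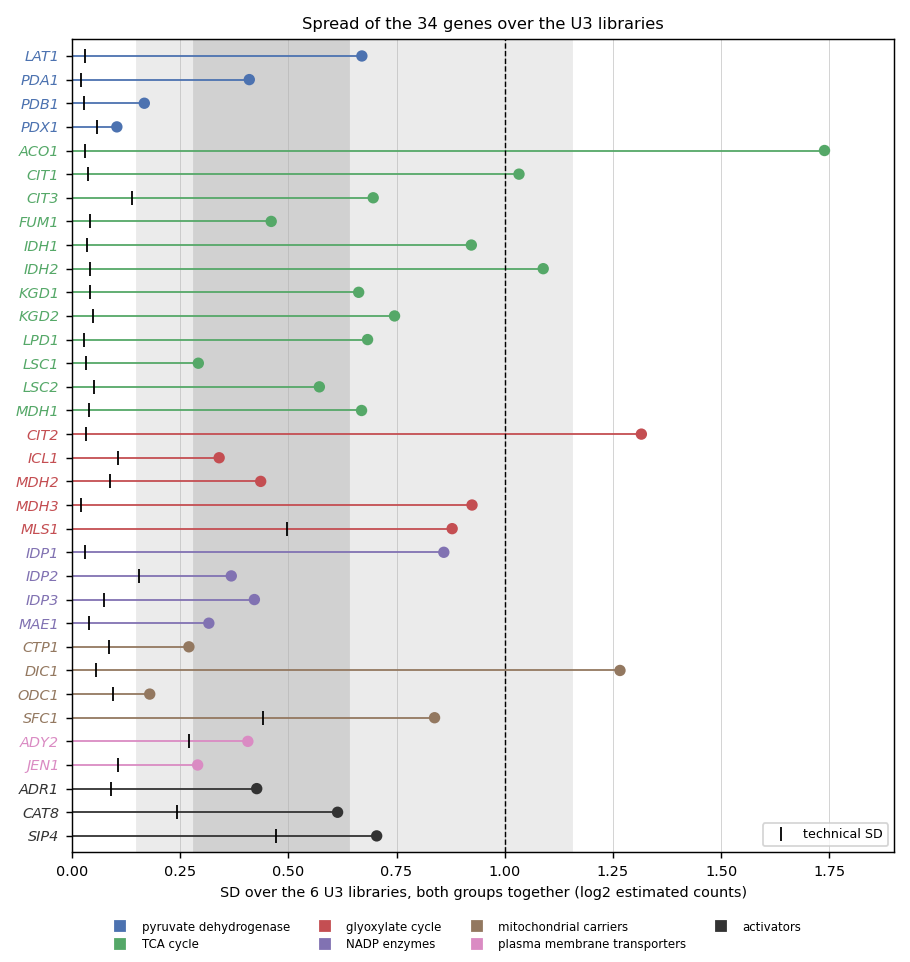
SD of the log2 estimated counts over the 6 U3 libraries, both groups together, for each of the 34 genes (points, coloured by role), with the technical SD as a black tick, a dashed line at 1 and grey bands for the middle 50% and 90% of protein-coding transcripts. ACO1, CIT2, DIC1, IDH2 and CIT1 lie past the line.

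Promoters were read from the R64 genome as the 300 bases from 250 before to 50 after each gene's annotated start, and 4 motifs were searched on both strands. The carbon source response element (CSRE), bound by Cat8 and Sip4, was searched by the core CCNNNNNNCCG, and 2 of the 34 windows held it (CIT3 and DIC1), against 10.2% of 6007 promoters. CCAAT, bound by the Hap2/3/4/5 complex, was in 18 of 34 against 43.3% of promoters. GTCAC, the R box of the retrograde factors Rtg1 and Rtg3, was in 12 of 34 against 26.5%, and GCGGGG, the core of the Mig1 repressor site, was in 2 of 34 (LSC2 and CAT8) against 2.58%. A match is only a match of letters, and none was tested for binding.

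The window was then widened to the 600 bases before the start, a choice made after the 300-base counts were seen. In it 19 of the 34 genes held a CSRE core against 24.7% of 6005 promoters, 28 held CCAAT against 70.3%, 23 held GTCAC against 49.2% and 8 held GCGGGG against 6.79%. CSRE cores of ICL1, MLS1, MDH2, SFC1, IDP2, ADY2 and SIP4 are shown because the products of these genes serve growth on acetate or ethanol, where Cat8 and Sip4 act. Which cores to show was decided after the matches were seen: 2 of 6 for MLS1, 2 of 4 for MDH2, 1 of 4 for ADY2, 1 of 2 each for SFC1 and SIP4, and the only one of ICL1 and of IDP2. The other plasma membrane transporter, JEN1, and the other activators, CAT8 and ADR1, held no core in either window. Each run is 5′ to 3′ on the strand that reads CC first, with the 11-base core in capitals.
ICL1 (V:287292-287321, minus strand): cccaggtttCCATTCATCCGagcgatcact
MLS1 (XIV:405849-405878, plus strand): tcatagcttCCATTGGGCCGatgaagttag
MLS1 (XIV:405818-405847, minus strand): atggggatttCCATTGAGCCGatagcaatg
MDH2 (XV:83277-83306, minus strand): ttactttgcCCATTCGGCCGtagccgttct
MDH2 (XV:83333-83362, plus strand): gatgatgagtCCATTTGGCCGgggaaggcc
SFC1 (X:609184-609213, minus strand): tcgccaacgtCCATTTCTCCGggcgggcgc
IDP2 (XII:504279-504308, plus strand): atgtcattgCCGGTGGTCCGaaaatcggca
ADY2 (III:133437-133466, plus strand): accgaaatagCCGCCCAACCGcaaatctgg
SIP4 (X:265642-265671, plus strand): ccattttcgCCGTTCGACCGgtgttttggc
The ICL1 core lies 388 to 398 bases before the start, and those of MLS1 shown lie at 490 to 500 and 521 to 531. The first MLS1 core shown overlaps another of the 4 motifs. Of the 9 genes past the fold on ice, 5 held a core in the wider window (MDH1, MLS1, IDP2, ADY2 and SIP4), and of the other 25 genes 14 did. Cores were thus found in both sets in that window, while in the 300-base window 0 of the 9 and 2 of the 25 held one.

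The R box sites are shown for the genes with a wide U3 spread, since CIT2 is the classic target of retrograde signalling, the pathway that answers mitochondrial dysfunction. Capitals mark the R box.
CIT2 (III:122507-122536, plus strand): tctttagattaacGTCACcaatttcatacg
CIT2 (III:122623-122652, plus strand): agctacggaaaagGTCACactttttttctg
CIT2 (III:122656-122685, minus strand): aggggcgaagagGTCACgacctattttttc
ACO1 (XII:737981-738010, minus strand): tgaatgacgccgGTCACacgcgggtgcctg
DIC1 (XII:828193-828222, minus strand): tttgcggatacgGTCACgcatccgcagaac
CIT1 (XIV:631412-631441, minus strand): gtgctaaaaggcGTCACgtttttttccgcc
The CIT2 site nearest the gene lies 192 to 196 bases before its start. In the wider window the R box was in 4 of the 5 widely spread genes, with IDH2 the exception, and in 19 of the other 29. Of all promoters, 49.2% held it there. In the 300-base window the split went the other way, with 1 of the 5, CIT2, and 11 of the other 29. The wider window was chosen after the 300-base counts were seen, so nothing is read from either split.

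Genes of the same pathways outside the list were described by counts. The 38 such genes included succinate dehydrogenase, pyruvate carriers, carnitine acetyltransferases, gluconeogenic enzymes and the retrograde and respiratory regulators. They were listed with earlier results of these data known. Of the 38, 13 or 34.2% were lower on ice, beside 12.0% of all genes, and 0 were higher, beside 8.87%. Their median ratio was -0.32, and no difference was tested. The lowest were MPC3, a subunit of the mitochondrial pyruvate carrier, at -2.37, the carnitine carrier CRC1 at -1.53, the respiratory activator HAP4 at -1.38 and the acetyl-CoA synthetase ACS1 at -1.22. In the U3 libraries 2 of the 38, SDH1 and CRC1, had an SD of at least 1, or 5.26%. That share was 14.8% for all transcripts and 8.0% for protein-coding ones. The median SD of the 38 was 0.43.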

How the data were processed

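Poly(A)-selected, directional RNA-seq libraries per the labels fell into 6 groups of 3 by sample title. The study's text also describes depletion of ribosomal RNA for U3, and a legend gives an ethanol and glycerol medium for the ice samples. The labels were followed in both. The authors trimmed reads with Trimmomatic. For U3 the authors quantified transcripts with kallisto and compared groups with sleuth. In the snR4 experiment STAR, HTSeq and DESeq2 served the authors for mapping, counting and comparison. Whether counting used strand is not given in the sources used here.

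The deposited U3 table gives the mean of the natural log of the estimated count plus 0.5, and the observed and technical variances as score values. The deposited snR4 tables give the mean normalised count, a signal value averaged by the authors over 6 libraries. Their remaining columns hold the authors' comparisons of mutant with control (fold changes, errors, statistics, p and q) and were not used, so mutants are not compared with controls. No values per library were used.

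Members were matched by symbol or systematic name. Lengths, promoters and coding ends came from the R64 genome and RefSeq annotation, the build named in the labels. Ratios used genes with means of at least 10, centred on their median, with a threshold of 1.5-fold, and spreads a threshold of 1 on the log2 scale. Natural log variances were converted to log2. Isozymes were aligned as coding DNA. All members were accounted for, and full values were given to the isozymes, glyoxylate enzymes, transporters, activators, each role's extremes and genes past a threshold. The 38 related genes were a list, of which at most the 4 with the largest ratios past the fold were named. Members and lists were chosen with earlier results of these data known. Computations used Python 3.11.15, numpy 2.4.6, pandas 2.3.3, scipy 1.17.1 and Biopython 1.88, and scripts were tested on simulated data. Alternatives were other scalings, minimums, pseudocounts, thresholds, backgrounds and promoter windows.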

Additional observations from a re-analysis of the deposited data

How the results depend on the processing

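No paired analysis was possible because the tables hold no values per library, and leaving out single libraries could not be run for the same reason. Of the 9 genes past the fold, none changed sign under another scaling, minimum or pseudocount. None could have, since these settings moved their ratios by far less than the fold, so nothing is read from it. Near 0, ACO1 stood at -0.05 and IDP1 at -0.0061 without centring, and SFC1 at 0.03 and CTP1 at 0.01 after scaling to the sums of the means. The number of genes lower on ice, 9 with the settings used, was 5 at 2-fold (5.31% of all genes), 5 of 28 kept with a minimum mean of 100 (10.6%), a filter that took out MLS1, JEN1, ADY2 and SIP4, and 8 (11.2%) after scaling to the sums of the means, where MDH1 was lost. With the fold set at 25% above equal, 12 were lower and 1, MAE1, was higher, beside 22.3% and 19.5% of all genes. The number with a wide U3 spread, 5, was 19 of 34 at an SD of 0.5, beside 49.9% of all transcripts, and 1, ACO1, at an SD of 1.5, beside 6.10%. The 600 bases before the start were chosen after seeing the data, and shares of all 6005 promoters are in brackets. There CCAAT was found in 28 members (70.3%), the CSRE core in 19 (24.7%), GTCAC in 23 (49.2%) and GCGGGG in 8 (6.79%). Without division by length, 12, 10 and 2 genes lay above the 90th percentile in glucose, on ice and in the U3 libraries.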
